A study of Sus scrofa with 8 samples.

Results

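Solute carriers are the membrane proteins that move sugars, amino acids, nucleotides, metabolites and ions across the cell surface and across the membranes of organelles without splitting ATP themselves. Many run on the sodium gradient that the sodium pump builds, others exchange 1 substrate for another, and the SLC25 family carries ADP, ATP, phosphate and fuel intermediates across the inner mitochondrial membrane. In heart muscle they set the entry of glucose and fatty acids, the export of ATP from mitochondria and, through the sodium-calcium exchanger, the removal of calcium after each beat. Members were taken by name: every gene whose platform symbol begins with SLC and a digit, each represented by the probe set with the highest mean over all 8 arrays. This gave 120 of the 6765 genes named on the array, from 176 probe sets, and 81 of them had a single probe set. Of the 120 genes, 3 are not transporters (SLC2A4RG, SLC9A3R1 and SLC9A3R2, named after a transporter gene or a protein that they bind). SLC12A8 and SLC23A3 were left out by the rule, which asks for 1 symbol per probe set. The annotation lists SLC12A8 together with another gene and SLC23A3 with its own symbol repeated. Other well-known heart carriers, such as SLC6A6, SLC16A1, SLC7A5, SLC40A1 and SLC25A13, are not analysed here.

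All pigs had had a myocardial infarction, and RNA was taken from left ventricle remote from the scar and run on 1 Affymetrix porcine genome array per pig. The animals were Yorkshire swine, castrated males under 1 year of age with a mean weight of 54.5 kg. The groups were 3 untreated pigs, 3 given glial growth factor 2 (GGF2, a neuregulin-1 isoform that signals through ERBB receptors) at 0.67 mg/kg per infusion, the low dose, and 2 that received 2.0 mg/kg per infusion, the high dose. Treatment lasted 4 weeks. No uninfarcted pigs were among the samples, so every value is from a heart after infarction, and the high dose rests on 2 animals. The study asked what GGF2 changes in this remote muscle, and the question here is whether transporter genes differed with dose. Values are RMA values on a log2 scale, where 1 unit is a 2-fold difference, and errors are SD over animals unless given as the standard error (SE) of a fitted difference.

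Correlations between arrays across probe sets lay between 0.981 and 0.994. The tissue label was borne out by cardiac muscle genes: 10 of 12 listed markers were measured and all 10 lay above the upper quartile of probe set means, 7.38. Some cell type lists differed between groups on their summed level. Macrophage markers (10 of 15 measured, 0 below the lower quartile of 3.78) summed to between 9.81 and 10.42 on the log2 scale in untreated pigs, 9.72 and 10.52 at the low dose and 9.39 and 9.52 at the high dose. Fibroblast markers (8 of 10 measured, 0 below the lower quartile) summed to between 13.11 and 13.53, 12.93 and 13.58, and 12.23 and 12.74 in the same order. Endothelial markers (11 of 12 measured, 1 below the lower quartile) summed to between 11.19 and 11.37, 10.90 and 11.42, and 10.73 and 11.11. The high-dose animals thus lay below all untreated ones for the sums of these 3 lists, in which the brightest genes weigh most. Not all markers went that way: 2 of 10 macrophage, 2 of 8 fibroblast and 3 of 11 endothelial markers were higher at the high dose. COL3A1 of the fibroblast list was at 0.83, with both high-dose animals above all untreated ones. The median differences of the lists were -0.42, -0.61 and -0.08 in that order. Epicardial and mesothelial markers (5 of 7 measured, 0 below the lower quartile) summed to between 7.26 and 8.10 in untreated pigs, 8.46 and 9.01 at the low dose and 7.81 and 8.07 at the high dose. The low-dose animals lay above all others for that sum, in which KRT8 and TCF21, also in the fibroblast list, were the brightest genes. The keratin gene KRT8 was at 2.21 at the low dose (limma adjusted p = 0.795). The others were at 0.45 (KRT19), 0.36 (TCF21), 0.18 (KRT18) and -0.11 (WT1), so the sum reflects mainly KRT8. RNA integrity was read from the gap between the 3' and 5' actin control probe sets, which was 4.88 to 5.26 in untreated pigs, 5.48 to 6.04 at the low dose and 4.92 to 5.18 at the high dose, so it was larger in every low-dose animal than in any other. The same gap for GAPDH was 1.09 to 1.65, 1.32 to 1.62 and 1.10 to 1.17, and for EF1A 2.69 to 3.19, 2.82 to 3.69 and 2.76 to 2.98, so for these the low dose overlapped untreated. The part of these differences in the results below was not tested. In whole tissue, fewer cells of a type and less RNA per cell cannot be told apart.

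As a family, the solute carrier genes differed little from the untreated level at either dose. No member passed limma's test at an adjusted p under 0.05 in any comparison, against 0% of all 23999 probe sets for either dose against untreated, 0% for any dose against untreated and 0.025% (6 probe sets) for high against low dose. The smallest adjusted p of a member was 0.998 at the low dose, 0.352 at the high dose (SLC31A2), 0.312 between the doses (SLC25A3) and 0.772 for any dose (SLC31A2). The median change over the 120 genes was 0.02 log2 units at the low and 0.08 at the high dose, beside 0.01 over all probe sets in both cases. The high-dose median was 0.02 over the brightest probe set of every named gene. Members were higher than untreated in 66 of 120 cases (55%) at the low dose, where 52% of all probe sets were higher, and in 75 of 120 (62.5%) at the high dose, where 53.3% were. A change of at least 1.5-fold was seen in 1 member (0.833%) at the low and 5 (4.17%) at the high dose, with 1.75% and 4.93% of all probe sets. These shares are near the background, and their differences from it were not tested.

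For probe sets above background, the data do limit how large a change could be. The 95% interval of a member's difference from untreated extended by a median of 0.34 log2 units (1.26-fold) to each side at the low and 0.38 (1.30-fold) at the high dose. It lay wholly within 2-fold of no change for 116 and 107 of the 120 genes, and within 1.5-fold for 91 and 69. The intervals are per gene and not adjusted for the number of genes. The 120 include 19 genes below the lower quartile of 3.78, where differences are compressed, so their intervals do not bound the change in RNA. The members' spread between animals of a group, a median SD of 0.19, was near the 0.17 over all probe sets.

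**Figure D1:**
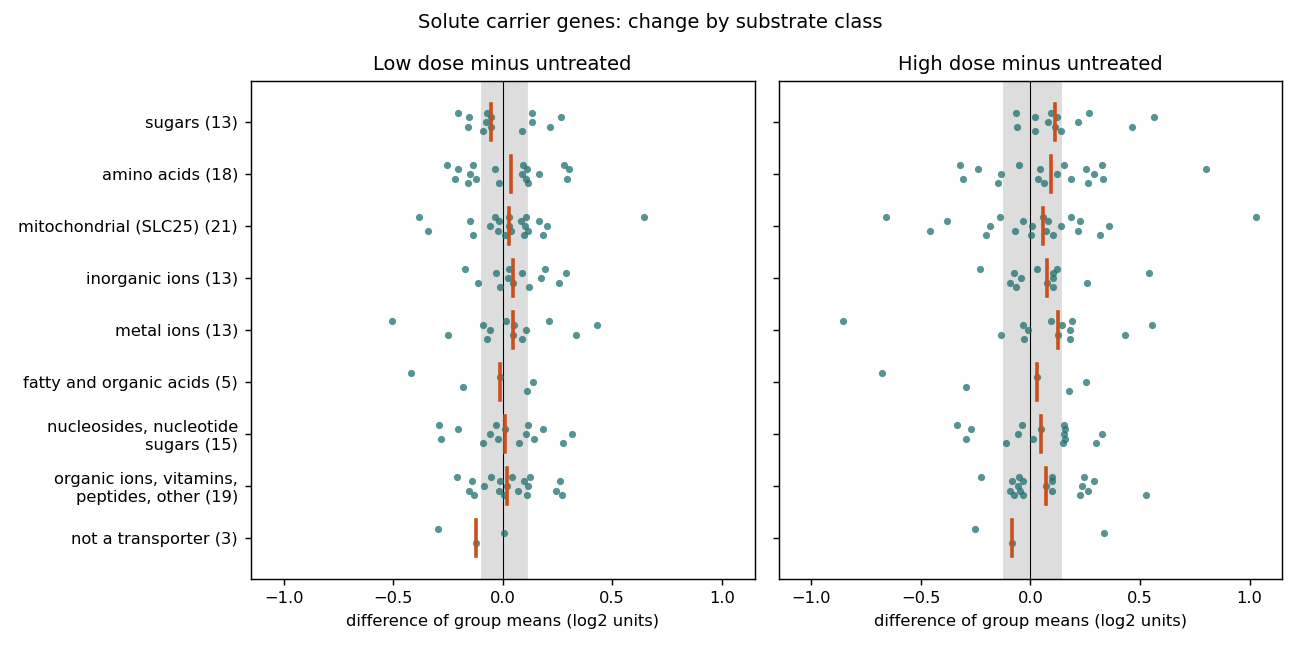
Each point is 1 solute carrier gene, placed by its difference between group means (x axis, log2 units; left low dose, right high dose, both against untreated) in the row of its substrate class, with the number of genes in brackets. Orange bars are class medians and the grey band spans the quartiles of all probe sets, from -0.10 to 0.11 at the low dose and -0.12 to 0.14 at the high dose. The class medians lie inside or close to the band, and SLC25A5 is the point farthest to the right in both panels.

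Among sugar transporters, neither the insulin-regulated nor the basal glucose carrier differed beyond the spread between animals. SLC2A4 (GLUT4), which insulin and contraction bring to the muscle cell surface, measured 6.70, 6.70 and 6.69 in the untreated pigs, 6.75, 6.29 and 6.90 at the low dose and 6.67 and 6.77 at the high dose. The untreated values lay within those of both doses. Its difference at the high dose was 0.02 ± 0.17 (SE; limma adjusted p = 0.991), with a 95% interval from -0.37 to 0.41, and at the low dose -0.05 ± 0.15. SLC2A1 (GLUT1), the basal carrier, measured 6.39, 6.77 and 6.54 in untreated pigs, 6.37, 6.14 and 7.03 at the low dose and 6.74 and 6.64 at the high dose. All 3 groups overlapped, and the high-dose difference was 0.12 with an interval from -0.43 to 0.68.

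SLC2A3 (GLUT3), a high-affinity glucose carrier, measured 9.19, 10.21 and 9.43 in untreated pigs, 9.96, 9.47 and 9.79 at the low dose and 10.36 and 9.98 at the high dose. Both high-dose animals lay above all low-dose animals, but untreated animal 2 lay between them. Its high-dose difference of 0.56 ± 0.29 (SE) did not pass (limma adjusted p = 0.696), and it was 0.35 without untreated animal 1 and 0.86 without untreated animal 2. Of the 13 sugar transporters, 11 were higher and 2 lower at the high dose, with a median of 0.11, and 5 were higher and 8 lower at the low dose, with a median of -0.05. Between the doses 11 of the 13 were higher at the high dose, with a median of 0.17. An unadjusted p under 0.05 in limma was reached by 2 of the 13, both higher. Such a p was seen in 10.2% of all probe sets in either direction, and in 4.38% with a higher value. Over all probe sets 53.3% were higher at the high dose, 52% at the low dose and 51.1% between the doses. The differences of the class from these shares were not tested.

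SLC2A8, an intracellular glucose transporter, had a small difference of opposite sign at the 2 doses. It measured 5.27, 5.34 and 5.35 in untreated pigs, 5.23, 5.22 and 5.02 at the low dose and 5.46 and 5.39 at the high dose. The low-dose animals all lay below the untreated ones and the high-dose animals above them. The 2 doses differed by 0.27 ± 0.12 (SE; unadjusted p = 0.0442 in limma), which did not pass after adjustment. SLC2A12 (GLUT12) was also higher at the high than at the low dose, by 0.42 ± 0.17 (unadjusted p = 0.0373 in limma), and by 0.27 without low-dose animal 1. SLC45A2, best known from pigment cells, had the largest difference from untreated in the class after SLC2A3, at 0.47 ± 0.16 at the high dose (limma adjusted p = 0.498). Its value was 0.30 without high-dose animal 1. The intestinal SLC5A1 and the liver carrier SLC2A2 lay below the lower quartile of probe sets and are taken as close to background.

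The 17 measured genes of SLC2A4 traffic and glucose trapping gave 7 higher at the low dose and 10 higher at the high dose, 0 passing in limma. Over all probe sets 52% and 53.3% were higher. An unadjusted p under 0.05 in limma was reached by 4 of 17 at the high dose, beside 7.97% of all probe sets in either direction. The list was chosen with earlier results of these data known, so this count is a description and not a test. PPARGC1A, which coactivates genes of mitochondrial biogenesis, was at 1.08 and the insulin receptor INSR at 0.46. TXNIP, which restrains glucose uptake, was at -0.65 and KLF15, a transcription factor that induces SLC2A4, at -1.11. These were the 4 genes. Traffic and trapping genes such as TBC1D1 (-0.26), RAB10 (-0.16), STX4 (0.07), HK1 (0.12) and GYS1 (-0.02) did not reach that p.

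Amino acid carriers were led by SLC38A1, which takes up glutamine with sodium. It measured 9.31, 10.36 and 9.34 in untreated pigs, 10.79, 9.35 and 9.71 at the low dose and 10.48 and 10.47 at the high dose. Both high-dose animals were above all untreated ones, but only just above untreated animal 2 and below low-dose animal 1. The high-dose difference of 0.80 ± 0.44 (SE) was 1.74-fold and did not pass (limma adjusted p = 0.708). It had a 95% interval from -0.19 to 1.80. The gene's other probe sets, with means below the brightest, were at 1.02 and 0.87 at the high dose. Their 95% intervals began at 0.11 and 0.39, so unlike that of the brightest they lay wholly above no change. These intervals are not adjusted for the number of probe sets.

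Untreated animal 2 and low-dose animal 1 carry neighbouring tag numbers in the labels, and in 28 of the 120 members (23.3%) both were the highest of their group, as in 15.2% of all probe sets. Among these members were SLC38A1, SLC6A8, SLC7A1, SLC2A3 and SLC25A5. The same 2 animals were both the lowest of their group in 16 of the 120 members (13.3%), beside 16.7% of all probe sets. With a term for these 2 animals in the fit, SLC38A1 was at 1.18 (limma adjusted p = 0.0345) and SLC25A5 at 1.23 (0.0274) at the high dose. These 2 of the 120 members then passed, and they are among the 70 of all 23999 probe sets that did. What the tag numbers stand for is not given in the labels. Untreated animals 1 and 3 also carry neighbouring numbers, and so do both high-dose animals, so tag number and high dose cannot be told apart, and the term covers only the pair that spans 2 groups.

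SLC6A8, which brings creatine into muscle, measured 8.87, 9.63 and 8.99 in untreated pigs, 9.83, 8.80 and 9.35 at the low dose and 9.62 and 9.36 at the high dose, and all groups overlapped. The arginine carrier SLC7A1 measured 6.96, 7.62 and 6.62 in untreated pigs, 7.94, 7.03 and 7.12 at the low dose and 7.62 and 7.01 at the high dose. Its differences of 0.30 and 0.25 at the low and high dose lay within this spread, at 0.01 without low-dose animal 1 and -0.05 without high-dose animal 1. The glutamine carrier SLC1A5 was at 0.09 and 0.04. SLC3A2, the heavy chain that brings several amino acid exchangers to the surface, was at -0.21 and 0.06. SLC1A3, a glutamate carrier, measured 4.76, 4.50 and 4.74 in untreated pigs, 4.82, 4.98 and 5.08 at the low dose and 4.81 and 5.05 at the high dose. All treated animals lay above the untreated ones, by 0.28 for any dose (unadjusted p = 0.0412 in limma; adjusted p = 0.956). Of the 18 members, 9 were higher at the low dose (median 0.04) and 12 at the high dose (median 0.09), beside 52% and 53.3% of all probe sets.

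SLC3A1, a partner of cystine transport, had the largest spread between animals of all members, a pooled SD of 0.665, with low-dose values of 5.46, 6.30 and 7.37. The amino acid starvation response, which induces several of these carriers in other settings, had 9 measured genes. Of these 4 were higher at the high dose, where 53.3% of all probe sets were, and 0 passed in limma. ATF3, a stress-induced factor, measured 8.55, 11.37 and 8.59 in untreated pigs, 11.63, 7.64 and 11.57 at the low dose and 13.12 and 13.05 at the high dose. Its difference of 3.58 at the high dose was the only one of these 9 with an unadjusted p under 0.05 in limma (adjusted p = 0.513). Such a p was seen in 7.97% of all probe sets. ASNS, an enzyme of that response, was at -0.12.

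Mitochondrial carriers held the largest difference of the family. SLC25A5 (ANT2), a form of the exchanger that passes ATP out of mitochondria for ADP, measured 7.56, 8.33 and 7.61 in untreated pigs, 8.78, 8.20 and 8.45 at the low dose and 8.89 and 8.83 at the high dose. Both high-dose animals were above every other animal, and the low-dose animals overlapped untreated animal 2. The difference was 1.03 ± 0.25 (SE) at the high dose, or 2.04-fold, with a 95% interval from 0.46 to 1.60 (limma adjusted p = 0.383). It was 0.65 ± 0.22 at the low dose, with an interval from 0.13 to 1.16 (limma adjusted p = 0.998). Both doses share the same untreated animals.

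SLC25A5 has close relatives. SLC25A4 (ANT1), the heart and muscle form, measured 13.85, 13.96 and 13.97 in untreated pigs, 13.98, 13.99 and 14.06 at the low dose and 14.00 and 14.01 at the high dose. These values lay close to the top of the scale, 15.01, and the treated animals were all above the untreated ones, by 0.08 ± 0.11 (SE) at the high dose. SLC25A6 (ANT3) was at 0.11 at the low and -0.19 at the high dose. Each of the 3 genes had a single probe set. Their sequences are alike, and how far a probe set takes up RNA of a relative was not tested.

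SLC25A3, which brings phosphate into mitochondria for ATP synthesis, was higher at the high dose only by a small and even amount. It measured 13.10, 13.01 and 13.05 in untreated pigs, 12.90, 13.12 and 13.04 at the low dose and 13.44 and 13.39 at the high dose. The high-dose animals lay above all others. The difference from untreated was 0.36 ± 0.11 (SE; limma adjusted p = 0.467) and from the low dose 0.39 ± 0.11 (limma adjusted p = 0.312). The gene's dimmer probe set was at 0.33 in both of these comparisons.

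SLC25A24, a calcium-regulated carrier of ATP-magnesium and phosphate, was lower at the high dose. It measured 7.90, 7.63 and 7.53 in untreated pigs, 7.69, 8.17 and 7.14 at the low dose and 6.84 and 7.21 at the high dose. Both high-dose animals lay below the untreated ones, and low-dose animal 3 was as low. The difference of -0.66 ± 0.28 (SE) did not pass (limma adjusted p = 0.601), and its other probe set, below the lower quartile, was at -0.08. With the mean of both probe sets it was -0.37, and against the low dose it was -0.39 without low-dose animal 2, in place of -0.64. SLC25A14, an uncoupling-type carrier, was at 0.32 at the high dose (unadjusted p = 0.0385 in limma).

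The carriers that feed fuel into mitochondria differed little. SLC25A20, which imports acylcarnitines for fatty acid oxidation, measured 8.98, 8.83 and 9.01 in untreated pigs, 8.99, 8.96 and 8.98 at the low dose and 9.17 and 8.85 at the high dose. Its high-dose difference of 0.07 had an interval from -0.23 to 0.37. SLC25A11 and SLC25A12, which serve the malate-aspartate shuttle, were at 0.14 and 0.23 at the high dose, and the citrate carrier SLC25A1 at 0.19. The iron carrier SLC25A37 was at 0.17 at the low and 0.10 at the high dose. SLC25A33, a pyrimidine nucleotide carrier, measured 8.37, 9.83 and 8.12 in untreated pigs, so animal 2 alone spread that group, and its high-dose difference was 0.01. Of the 21 members, 13 were higher at each dose, with medians of 0.03 and 0.06, beside 52% and 53.3% of all probe sets.

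Of the 17 measured genes for mitochondrial import and exchange, the partners of these carriers, 15 were higher at the high dose, with a median of 0.14. At the low dose 8 were higher, with a median of -0.02. Over all probe sets 53.3% were higher at the high and 52% at the low dose. The list was chosen with earlier results of these data known, and its difference from these shares was not tested. None passed in limma at either dose. At the high dose 1 had an unadjusted p under 0.05 in limma, the aspartate aminotransferase GOT1 at 0.31, beside 7.97% of all probe sets. The channel gene VDAC2 was at 0.23 and the pyruvate carrier genes MPC1 and MPC2 at 0.15 and 0.14.

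**Figure D2:**
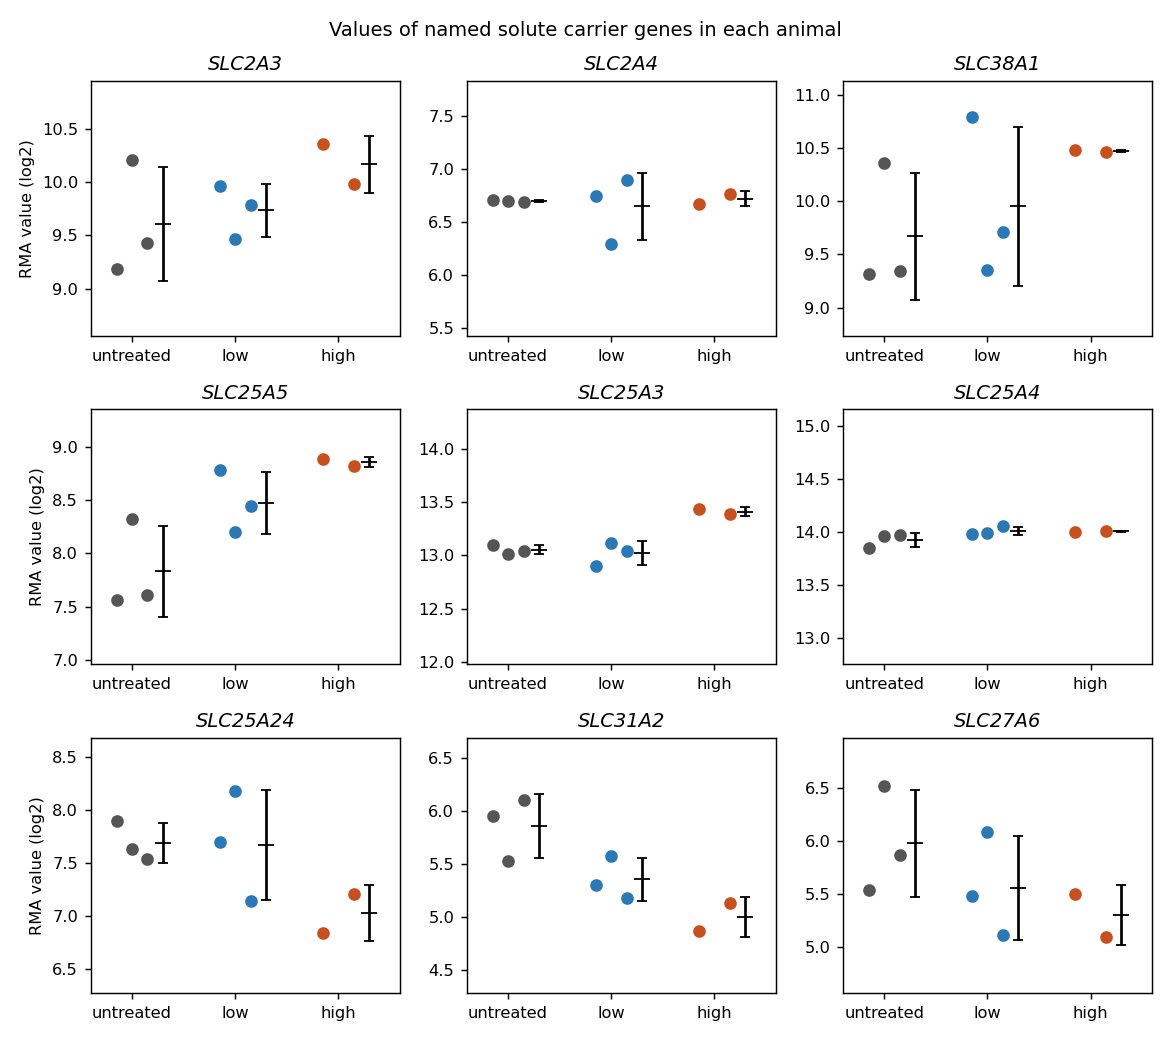
RMA values (y axis, log2; each panel spans the same number of units) of named members in each animal, with untreated in grey, low dose in blue and high dose in orange, and the group mean ± SD in black beside the points. SLC25A5 and SLC25A3 lie highest in the high-dose animals and SLC31A2 lowest, SLC2A4 and SLC25A4 stay nearly level, and SLC38A1 and SLC2A3 are close to the high-dose level in untreated animal 2.

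Ion carriers of the cell surface were mostly near the untreated level. SLC8A1, the sodium-calcium exchanger that removes calcium in diastole, measured 6.81, 5.80 and 6.16 in untreated pigs, 5.74, 6.54 and 6.57 at the low dose and 6.59 and 7.00 at the high dose. The high-dose animals lay above all low-dose animals, and untreated animal 1 lay between them. The high-dose difference of 0.54 ± 0.34 (SE) had an interval from -0.23 to 1.31 (limma adjusted p = 0.752). It was 0.31 without untreated animal 2, 0.82 without untreated animal 1, 0.33 without high-dose animal 2 and 0.29 with the term for tag numbers. The anion exchanger SLC4A2 was at 0.26 at both doses, and SLC8B1, the mitochondrial sodium-calcium exchanger, at 0.18 and 0.10. SLC12A4, a potassium-chloride cotransporter, was at 0.29 and -0.09, with low-dose animal 1 at 6.63 and the other low-dose animals at 5.62 and 5.92. Without low-dose animal 1 its low-dose difference was 0.00. Of the 13 members, 9 were higher at the low and 8 at the high dose, beside 52% and 53.3% of all probe sets. The medians were 0.05 and 0.07, and none reached an unadjusted p under 0.05 in limma in any comparison.

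The sodium pump, which powers sodium-coupled carriers, had 3 measured genes of its list. The subunit ATP1B1 was at 0.30 and ATP1B3 at 0.54 at the high dose (limma adjusted p = 0.570 and 0.375), and both high-dose animals lay above the untreated ones for each. FXYD5, a pump regulator, was at -0.29. Among the 7 measured partners for calcium, proton and volume control, 6 were higher at the high dose, where 53.3% of all probe sets were. In limma 0 passed and 1, the kinase gene SGK1 at 0.70, had an unadjusted p under 0.05, beside 7.97% of all probe sets.

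Metal ion carriers held the largest lower value of the family. SLC31A2 (CTR2), a copper transporter of inner membranes, measured 5.95, 5.53 and 6.10 in untreated pigs, 5.31, 5.58 and 5.18 at the low dose and 4.87 and 5.14 at the high dose. Both high-dose animals lay below all the others, and the low-dose animals overlapped untreated animal 2. The difference was -0.85 ± 0.20 (SE) at the high dose, with an interval from -1.31 to -0.40 (limma adjusted p = 0.352), and -0.50 ± 0.18 at the low dose (limma adjusted p = 0.998). The other probe set, below the lower quartile, was at -0.06 at the high dose, and with the mean of both probe sets the differences were -0.46 and -0.26.

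SLC31A1 (CTR1), the copper carrier of the cell surface, measured 7.00, 7.48 and 6.95 in untreated pigs, 7.30, 6.77 and 7.62 at the low dose and 7.79 and 7.60 at the high dose. The high-dose animals lay above the untreated ones, by 0.56 ± 0.25 (SE; limma adjusted p = 0.632), the opposite direction to SLC31A2. Its dimmer probe set, close to background, was at 0.22. SLC39A14, a zinc and iron importer, measured 4.90, 5.36 and 5.06 in untreated pigs, 5.91, 5.15 and 5.56 at the low dose and 5.12 and 5.02 at the high dose. Its low-dose difference of 0.43 did not reach an unadjusted p under 0.05 in limma and was 0.25 without low-dose animal 1, and a dimmer probe set was at 0.01.

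The magnesium carrier SLC41A1 was lower in the low-dose animals (10.59, 10.35 and 10.59) than in untreated (10.68, 10.73 and 10.86) and high-dose ones (10.95 and 10.82), with no overlap between the low dose and either of the others. The doses differed by 0.38 ± 0.13 (SE; unadjusted p = 0.0172 in limma), and the gene's other probe sets were at 0.03, 0.32 and 0.56. SLC30A5, a zinc carrier of the secretory pathway, was at 0.33 at the low dose (unadjusted p = 0.0242 in limma) and 0.18 at the high dose. The macrophage metal carrier SLC11A1 was at -0.06 and -0.03, and SLC11A2, an iron importer, at -0.07 and 0.18. SLC39A1, 1 of the 2 brightest of the class, was at -0.09 and -0.13. Of the 13 members, 8 were higher at each dose, with medians of 0.05 and 0.13. Of the 9 measured partners for iron, zinc and copper, 4 were higher at each dose and 0 passed in limma. Over all probe sets 52% were higher at the low and 53.3% at the high dose. The metallothionein MT3 was at 0.97 at the high dose with overlapping groups.

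Fatty acid and monocarboxylate carriers had 5 members. SLC27A6, a fatty acid transporter of the heart, measured 5.54, 6.52 and 5.87 in untreated pigs, 5.48, 6.08 and 5.11 at the low dose and 5.50 and 5.10 at the high dose. The high-dose animals lay below the untreated ones, with high-dose animal 1 close under untreated animal 1. The difference was -0.68 ± 0.34 (SE; limma adjusted p = 0.674), -0.40 without untreated animal 2 and -0.26 with the mean of all its probe sets. SLC27A1, the other fatty acid transporter measured, was at 0.11 and 0.18. The lactate exporter SLC16A3, with a mean near the lower quartile, was at 0.14 and 0.03, and SLC16A13 was at -0.29 at the high dose. SLC10A1, below the lower quartile, was at -0.01 and 0.26, the latter -0.01 without high-dose animal 2. Of the 6 measured partners, 5 were higher at the high dose, where 53.3% of all probe sets were, and 0 passed in limma. The fatty acid binding protein gene FABP3 was at 0.37, and BSG, the chaperone of monocarboxylate carriers, was at 0.28 at the low and 0.02 at the high dose.

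Carriers of nucleosides and nucleotide sugars included SLC35B3, which brings the sulfate donor PAPS into the Golgi. It measured 6.65, 6.55 and 6.62 in untreated pigs, 6.89, 6.95 and 6.82 at the low dose and 6.07 and 6.61 at the high dose. The low-dose animals lay above all others, and high-dose animal 2 lay among the untreated ones. The doses differed by -0.55 ± 0.16 (SE; unadjusted p = 0.00848 in limma), and by -0.28 without high-dose animal 1. SLC29A1, the adenosine carrier ENT1, was at -0.03 and 0.16. The 2 brightest members of the class were SLC35F5, at -0.29 and -0.34, and SLC35D2, at 0.31 and 0.32. The low-dose difference of SLC35D2 was 0.15 without low-dose animal 3. Among organic ion and vitamin carriers, the carnitine importer SLC22A5 was at 0.11 and 0.10, and the organic cation carrier SLC22A3 at 0.27 and 0.53, with high-dose values of 9.35 and 8.54 on either side of the highest untreated value, 8.94. The latter difference was 0.13 without high-dose animal 1 and 0.93 without high-dose animal 2. The choline-like transporter SLC44A2 was at 0.04 and -0.05. The 15 nucleoside and nucleotide sugar carriers had medians of 0.01 and 0.05, and the 19 of the mixed class 0.02 and 0.07. None of these 34 reached an unadjusted p under 0.05 in limma at either dose against untreated. In the mixed class 6 of 19 members lay below the lower quartile, kidney, gut and liver carriers such as SLC22A2, SLC22A8, SLC17A1 and SLC15A1 among them.

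**Figure D3:**
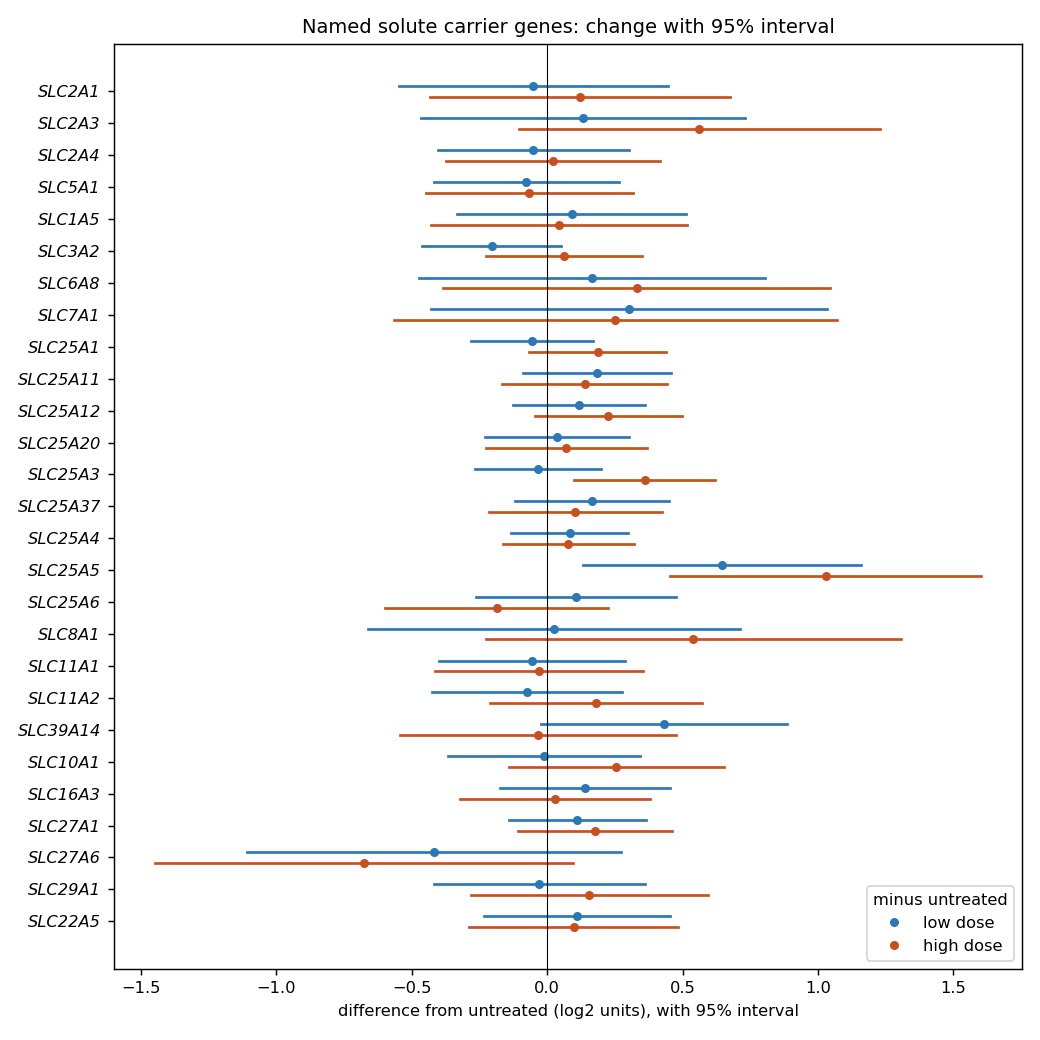
Differences from untreated (x axis, log2 units) with 95% intervals from limma for members named from general knowledge of transport, low dose in blue and high dose in orange. Only the intervals of SLC25A5 (both doses) and SLC25A3 (high dose) leave out 0, and these are not adjusted for the number of genes.

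Unadjusted p-values under 0.05 in limma were counted against the whole array. In either direction they made up 4.17% of members at the low dose (4.5% of all probe sets), 5.83% at the high dose (7.97%), 5% between the doses (10.2%) and 4.17% for any dose (4.83%). At the low dose 5 members reached it, 4 higher (3.33%, with 2.77% of all probe sets) and 1 lower (0.833%, with 1.74%): SLC25A5, SLC30A5, SLC1A3 and SLC2A5, a fructose carrier at 0.27, and SLC31A2. At the high dose 7 did, 5 higher (4.17%, with 3.61%) and 2 lower (1.67%, with 4.36%): SLC25A5, SLC45A2, SLC25A3, SLC25A14 and the scaffold gene SLC9A3R2 at 0.34, and SLC31A2 and SLC25A24. Between the doses 6 did, 4 higher at the high dose (3.33%, with 4.38%) and 2 lower (1.67%, with 5.85%): SLC25A3, SLC41A1, SLC2A12 and SLC2A8, and SLC25A24 and SLC35B3. For any dose 5 did, 4 higher (3.33%, with 2.43%) and 1 lower (0.833%, with 2.41%): SLC25A5, SLC45A2, SLC1A3 and SLC30A5, and SLC31A2. Members were also counted with an array left out. The matching shares of all probe sets were not computed, so those counts cannot be set against the whole array. The low-dose count was 0 without untreated animal 3, 2 without untreated animal 1 or low-dose animal 1 and 9 without low-dose animal 2. The high-dose count was 13 without untreated animal 2 and 4 without high-dose animal 1. The count between the doses was 11 without low-dose animal 1 or 3 and 3 without high-dose animal 1. For any dose it was 9 without untreated animal 1, 10 without untreated animal 2, 13 without low-dose animal 2 and 8 without high-dose animal 2.

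Groups that did not overlap were likewise counted. At the low dose 6 members lay wholly above untreated (5%, with 5.23% of all probe sets) and 4 wholly below (3.33%, with 3.87%). At the high dose 28 lay wholly above (23.3%, with 14.7%) and 11 wholly below (9.17%, with 12%). Between the doses 20 were wholly higher at the high dose (16.7%, with 13.2%) and 7 wholly lower (5.83%, with 13%). For any dose 3 lay wholly above untreated (2.5%, with 1.61%), SLC1A3, SLC2A5 and SLC25A4, and 1 below (0.833%, with 1.13%), the scaffold gene SLC9A3R1 at -0.28. The 28 higher members at the high dose came from every class but the fatty and organic acid carriers: 6 were mitochondrial carriers, 5 sugar, 4 amino acid, 4 nucleoside and nucleotide sugar, 3 metal ion, 3 mixed and 2 inorganic ion carriers, and 1 was the scaffold gene SLC9A3R2. Of these 28, SLC1A6, SLC2A2, SLC28A3 and SLC23A2 lay below the lower quartile of probe set means. Members with no overlap, a change of at least 1.5-fold and an unadjusted p under 0.05 in limma numbered 0 at the low dose (0.625% of all probe sets) and 3 at the high dose (2.5%, with 3.11%), which were SLC25A5, SLC31A2 and SLC25A24.

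Where a gene had several probe sets they often differed. Of 39 such genes, all probe sets had the sign of the brightest one in 25 at the high dose and 22 at the low dose, and 38 and 34 of the 56 other probe sets had it. All probe sets of SLC38A1 and of SLC25A3 were higher at the high dose. For SLC31A2 and SLC25A24 the other probe set was close to background and showed little difference.

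**Figure D4:**
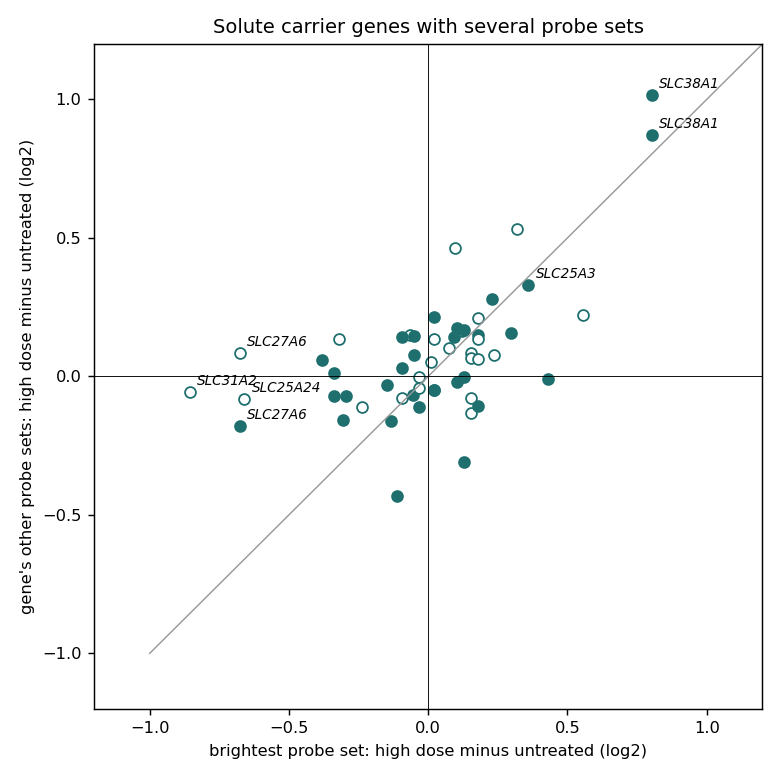
For the 39 genes with several probe sets, the high-dose difference from untreated of each further probe set (y axis, log2 units) against that of the gene's brightest one (x axis, log2 units), with open points for probe sets below the lower quartile of 3.78 and the grey line marking equal values. The probe sets of SLC38A1 and SLC25A3 lie near the line, and those of SLC31A2, SLC25A24 and SLC27A6 lie near 0 on the y axis.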

How the data were processed

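The authors deposited log2 expression values, 1 for each of 24123 probe sets and 8 arrays. RMA and Partek 6.6 are named, per the submitters' processing notes, with no other settings. RMA makes the arrays' distributions alike, so a change shared by most genes is removed, and a difference on a probe set near background or near the top of the scale is compressed. Arrays have no read depth; the number of arrays limits the precision.

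After 124 control probe sets were left out, 23999 probe sets were tested across all genes with limma 3.58.1 in R 4.3.3: 1 mean per group over all 8 arrays, 5 residual and 3.50 prior degrees of freedom, and Benjamini-Hochberg adjustment within each of 4 contrasts, the last being the mean of both doses against untreated. Intervals of 95% use the moderated SE. Symbols came from the platform annotation; 10069 probe sets carried 1 symbol, and 118 of the 120 solute carrier genes were found in the RefSeq gene table. Each array is a different pig per the labels; replicate numbers follow sample order. Probe sets with a mean below the lower quartile of 3.78 were taken as close to background. Substrate classes follow SLC families. Genes named were well-known carriers, the 2 brightest of each class and those with an unadjusted p under 0.05, 1.5-fold and no overlap; others were named after their values were seen. Members, classes and lists were chosen with earlier results of these data known. The fit was tested on simulated data. Alternatives were an intensity trend, a robust prior, array weights, median centring, a second quantile normalization, dropping dim probe sets, fitting only the groups compared, a threshold of 0.10, a term for 1 untreated and 1 low-dose animal with neighbouring tag numbers, averaging the probe sets of each gene and leaving out each array. Levels were not compared between genes, since probe sets differ in response.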

Additional observations from a re-analysis of the deposited data

How the results depend on the processing

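The count of 0 solute carrier genes passing held under every alternative run for all 4 comparisons, except that 2 passed at the high dose with the term for neighbouring tag numbers. The count of all probe sets passing at the high dose was 0 with all arrays and 10 at an adjusted p under 0.10, 4 with an intensity trend, 7 with a robust prior, 3 with median centring, 9 with renewed quantile normalization, 2 with only the groups compared, 13 with array weights and 70 with the tag number term, and 0 to 19 when an array was left out (highest without untreated animal 2). Between the doses it was 6, and 14, 1 without dim probe sets, 0 with only the groups compared, 10 with array weights, 25 with the tag number term and 0 to 7 when an array was left out. Members with an unadjusted p under 0.05 numbered 5 at the low dose, 3 without dim probe sets, 8 with the tag number term and 0 to 9 leaving out an array; at the high dose 7, 12 with only the groups compared or array weights, 19 with the tag number term and 4 to 13; between the doses 6, 10 with median centring, 14 with the tag number term and 3 to 11; for any dose 5, 3 with an intensity trend or without dim probe sets, 10 with array weights, 15 with the tag number term and 4 to 13. Shares of all probe sets with an unadjusted p under 0.05 were not computed under these alternatives. Whether the member counts moved with the whole array was therefore not tested. The median change between the doses was 0.0354, 0.0770 with median centring, 0.0835 with the tag number term and 0.0247 to 0.0874 leaving out an array. Leaving out an array gave 0.00 to 0.05 at the low dose, 0.06 to 0.08 at the high dose and 0.04 to 0.06 for any dose. The high-dose median was 0.09 with median centring and 0.11 with the tag number term. The causes were not tested. Over 109 single-gene differences, 65 of 1826 recomputed values changed sign. For the 23 of them with an unadjusted p under 0.05 it was 0 of 381. These 23 were picked by that p in the same arrays, which makes a change of sign unlikely in advance. For any dose, fitting only the groups compared is the fit already used. No paired analysis was possible because the labels hold no replicate numbers.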
